A study of Mus musculus with 6 samples.

Results

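Zmpste24 and the 5 other genes whose products prenylate and process CAAX proteins, namely Fnta, Fntb, Pggt1b, Rce1 and Icmt, were followed in mouse embryonic fibroblasts with and without Zmpste24. The members were taken by gene name, as every probe set (a group of short probes for one transcript) whose only platform symbol was one of the 6. There were 10 such probe sets among 45037 (6 of 18193 named genes), and all 10 were bright enough to be tested. RNA had been hybridised to Affymetrix whole-genome mouse arrays, 1 array for each culture. The 3 control cultures were labelled Zmpste24+/+ (wild type) and the other 3 Zmpste24-/-. All were C57BL/6 fibroblasts from E13.5 embryos, carried to passage 3 in serum-containing medium with no agent added. The labels do not say which part of Zmpste24 is deleted, or whether cultures of a genotype came from separate embryos. The p-values thus measure the spread between these cultures or, with replicate number as a block, between same-numbered differences.

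A CAAX protein ends in a cysteine followed by 3 further residues, and that cysteine receives a lipid. Farnesyltransferase, made of the alpha subunit from Fnta and the beta subunit from Fntb, attaches farnesyl. Geranylgeranyl transferase type I pairs the same alpha subunit with the beta subunit from Pggt1b and attaches the longer geranylgeranyl group. At the endoplasmic reticulum Rce1 then removes the residues after the cysteine and Icmt methylates the exposed end. Zmpste24, a zinc metalloprotease of the same membranes and the inner nuclear membrane, can also remove those residues. Only Zmpste24 is known to make the later cut that turns farnesylated prelamin A into mature lamin A, and mice without it develop a progeria-like disease.

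Stretches 5′ of the transcription start are shown for 3 members where the RefSeq promoter table (build GRCm38.p6) has bases outside any annotated gene. The window of Icmt has 0 such bases, Fnta has no entry, and Pggt1b was not examined. The stretches shown stand for the member that fell (Zmpste24) and for those that were lowest in culture 1 of both genotypes (Rce1 and Fntb), as described further on. The stretches are chr4:121098250-121098460, chr19:4625646-4625733 and chr12:76837217-76837399, on the minus, minus and plus strand, each read 5′ to 3′ toward the gene. Capitals mark matches on either strand to TGACGT, the core of the cyclic AMP response element (in full TGACGTCA), to CCAAT and to GGGCGG, the GC box.
Zmpste24: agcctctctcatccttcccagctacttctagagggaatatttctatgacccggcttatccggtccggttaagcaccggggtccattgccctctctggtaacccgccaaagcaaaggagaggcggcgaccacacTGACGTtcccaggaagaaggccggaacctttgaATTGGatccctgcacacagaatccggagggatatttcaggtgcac
Rce1: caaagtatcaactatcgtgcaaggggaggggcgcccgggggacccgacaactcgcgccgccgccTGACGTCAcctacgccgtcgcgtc
Fntb: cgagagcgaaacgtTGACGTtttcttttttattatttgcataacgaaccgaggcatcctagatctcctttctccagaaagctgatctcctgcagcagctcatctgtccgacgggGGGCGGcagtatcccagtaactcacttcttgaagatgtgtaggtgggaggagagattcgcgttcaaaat
All 3 stretches hold TGACGT, which occurs in 4.81%, 3.81% and 3.39% of all 32851 windows of the table cut to the same length and place. The full element TGACGTCA, which overlaps that core, is in the Rce1 stretch alone of the 3, and in 1.07% of windows of that length. CCAAT is in the Zmpste24 stretch (30% of windows) and GGGCGG in the Fntb stretch (21.5%). The sterol element TCACNCCAC was searched for too and is in none of the 3 (0.39% to 0.865% of windows).

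Median signal was 56.3 to 70.5 over the 6 arrays, and each had been scaled by the authors to the same mean. The cultures numbered 1 stood apart in both genotypes. Over log2 signals, Pearson's r between these 2 arrays was 0.9835, against 0.953 to 0.9586 with any of the other 4 and 0.9799 to 0.9836 within those 4. All 9 fibroblast markers fixed for the check were present, with signals of 477 or more on every array. One of them, Thy1, had groups that did not overlap, lower in Zmpste24-/- with a log2 difference of -0.29 (adjusted p = 0.292 with the replicate block in limma), as 3.03% of all tested probe sets were. Summed macrophage markers were 6133 and 11375 in the number 1 cultures and 1123 to 1725 in the others, and summed proliferation markers (5 genes) were 4236 and 4283 against 13434 to 15537. Summed endothelial markers stayed at or below 371 and summed skeletal muscle markers at or below 553 on every array. Summed epithelial markers were 471, 1202 and 1388 in wild-type cultures 1 to 3 and 545, 895 and 918 in Zmpste24-/-. The 3 epithelial markers tested were lower in Zmpste24-/- on average (median log2 difference -0.30), and none was called in either fit. Their medians in same-numbered pairs 1, 2 and 3 were 0.13, -0.52 and -0.63. Summed neural markers were 673 to 1015 in wild type and 933 to 1350 in Zmpste24-/-. All 5 neural markers were higher in Zmpste24-/- on average (median log2 difference 0.49), and none was called in either fit. Their median differences in same-numbered pairs 1, 2 and 3 were 1.05, 0.59 and -0.17. Only 2 of them, Nefm at 0.81 and Fabp7 at 0.67, were higher in every pair, as were 15.8% of all tested probe sets. The groups of these 2 did not overlap (2.22% of all tested probe sets were higher in this way). The part of these marker genes in the results was not tested. In each culture, fewer cells of a type and less RNA per cell cannot be told apart. Xist, an RNA of female cells, was 5324 in wild-type culture 1, 69.3 and 43.7 in wild-type cultures 2 and 3, and 4766 to 6669 in Zmpste24-/-. Eif2s3y, a Y-linked gene, was 1.5, 531 and 1341 in wild-type cultures 1 to 3 and 10.4 to 15.7 in Zmpste24-/-. Same-numbered cultures were thus alike in this mark of sex in number 1 and unlike in numbers 2 and 3, where genotype and sex cannot be told apart.

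Zmpste24 was the member that fell, to 9.50% of its wild-type mean. Its single probe set had signals of 3850, 2249 and 2043 in wild-type cultures 1, 2 and 3, and of 365, 182 and 226 in Zmpste24-/- cultures 1, 2 and 3. The groups did not overlap: the highest Zmpste24-/- value lay far below the lowest wild-type value. Mean signals were 2714 ± 989 and 258 ± 95.7 (SD, n = 3 each). Wild type exceeded Zmpste24-/- by 10.5-fold, 12.4-fold and 9.03-fold in same-numbered cultures 1, 2 and 3. Pair 1 shared the Xist mark and pairs 2 and 3 did not, and the part of sex was not tested. The Zmpste24 probe set was the 1 of 27022 tested that was lower by more than 2 log2 units in every same-numbered pair.

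On the scale used for testing, log2 of signal plus 16, the Zmpste24 difference was -3.31, with a 95% interval of -4.13 to -2.50 in limma without a block. The unadjusted p was 3.65e-05, the smallest of all probe sets, and the adjusted p was 0.987. By size it was the third largest fall and the fourth largest difference in either direction. Among the larger differences was the rise of Xist, at 4.31, a mark by which wild-type cultures 2 and 3 differed from the other cultures. The part of sex in this ranking was not tested. In that fit 0 of 27022 probe sets (0%) and 0 of the 10 member probe sets were called at an adjusted p under 0.05, while 349 and 1 had an unadjusted p under 0.05. With the replicate number as a block, which removes the gap between culture 1 and the others, the interval was -3.56 to -3.07 and the adjusted p was 4.02e-05. With that replicate block 5 probe sets were called (0.0185%), and Zmpste24 was the 1 called among the member probe sets. It was also called with number 1 alone as a block, where 11 were called (0.0407%), and in cultures 2 and 3 alone, where 20 were called (0.0740%). In cultures 2 and 3 alone, genotype and the Xist mark of sex cannot be told apart. The exact permutation p for 3 against 3 cultures was 0.1 (two-sided), the smallest this design allows.

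In both genotypes culture 1 had the highest Zmpste24 signal, 1.79-fold the mean of cultures 2 and 3 in wild type and 1.79-fold in Zmpste24-/-. Cultures 2 and 3 stood in opposite order in the genotypes. Whether the probe set lies in the deleted part of the gene, and so what the remaining signal measures, was not tested.

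**Figure D1:**
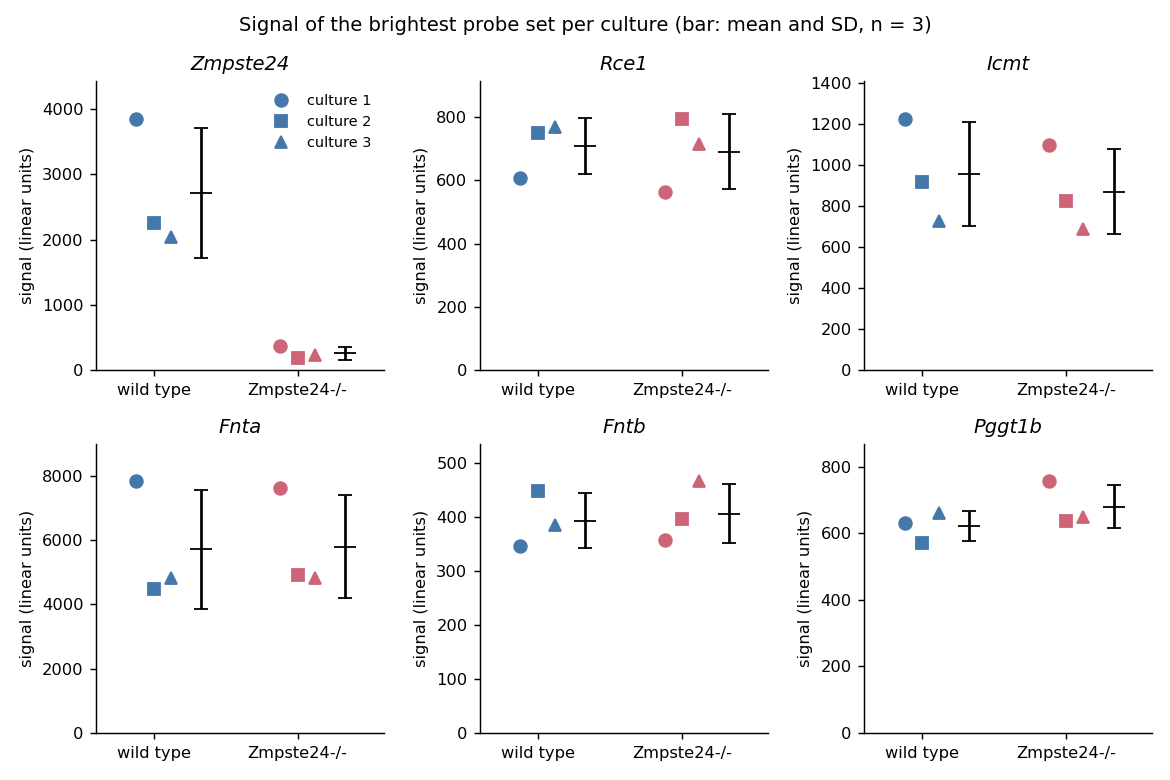
Linear signal (vertical axis, from 0) of the brightest probe set of each member in each of the 3 wild-type (blue) and 3 Zmpste24-/- (red) cultures, with the marker shape giving the culture number and the black bar the mean and SD. Zmpste24 was 2043 to 3850 in wild type and 182 to 365 in Zmpste24-/-, while the groups overlapped for the other 5 genes.

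None of the 9 probe sets of the other 5 genes was called in any fit, and all 9 had overlapping groups. Of the 10 member probe sets, 1 had groups that did not overlap with Zmpste24-/- lower (3.03% of all tested) and 0 had them with Zmpste24-/- higher (2.22%). With the replicate block 1 of the 10 had an unadjusted p under 0.05, against 8.99% of all tested, and that was Zmpste24. Of these 9 differences 6 were above 0 and 3 below, with a median of 0.03 against -0.0048 over all tested probe sets.

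Among the prenyltransferase subunits, Fnta, the alpha subunit shared by both enzymes, had nearly equal means. By its brightest probe set it was 7820, 4476 and 4824 in wild-type cultures 1 to 3 and 7630, 4905 and 4824 in Zmpste24-/-. Culture 1 was the high one in both groups, and the pairs differed by -0.04, 0.13 and -0.0003 in log2 units. The mean difference was 0.03, with a replicate-block interval of -0.10 to 0.16, which spans 0.934-fold to 1.12-fold (adjusted p = 0.891). The second Fnta probe set differed by 0.01, with a replicate-block interval of -0.12 to 0.15, so the 2 probe sets gave like results.

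Fntb, the beta subunit of farnesyltransferase, was 347, 448 and 385 in wild type and 357, 396 and 466 in Zmpste24-/-. Here culture 1 was the low one in both groups. The difference was 0.05, with pairs at 0.04, -0.17 and 0.26 and an interval of -0.24 to 0.33 with the replicate block, or 0.847-fold to 1.26-fold (adjusted p = 0.934).

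Pggt1b, the beta subunit of geranylgeranyl transferase type I, had 4 probe sets that did not give one direction. Its brightest (1438229_at) was 632, 571 and 661 in wild type and 756, 637 and 649 in Zmpste24-/-, a difference of 0.13 with a replicate-block interval of -0.11 to 0.36 (0.926-fold to 1.29-fold, adjusted p = 0.742). The highest value was that of Zmpste24-/- culture 1, and the remaining Zmpste24-/- values lay within the wild-type range. Probe sets 1438230_at and 1429769_at differed by 0.16 and 0.11, and the dimmest, 1429770_at, by -0.10. In the pair numbered 1 the first 3 were higher in Zmpste24-/-, by 0.25, 0.43 and 0.34, and the dimmest was lower by 0.31 (log2 difference -0.31). In pairs 2 and 3 the 4 probe sets lay between -0.13 and 0.15.

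**Figure D2:**
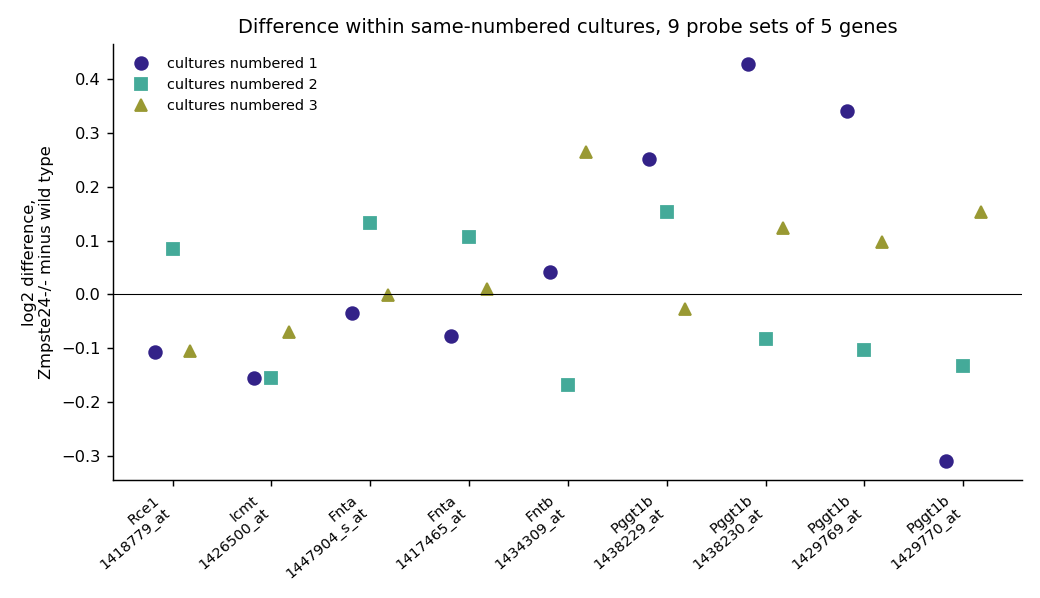
Log2 difference, Zmpste24-/- minus wild type, within same-numbered cultures (vertical axis) for the 9 probe sets of Rce1, Icmt, Fnta, Fntb and Pggt1b, with colour and shape giving the culture number. Icmt is below 0 in all 3 pairs, at -0.16, -0.16 and -0.07, and the largest gaps between probe sets of one gene are those of Pggt1b in number 1.

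The CAAX protease and methyltransferase genes were also near equal between genotypes. Rce1, the protease that trims the CAAX end, was 607, 748 and 769 in wild type and 562, 794 and 714 in Zmpste24-/-, with culture 1 the lowest in each group. Its difference was -0.04, with a replicate-block interval of -0.27 to 0.18 (0.830-fold to 1.13-fold, adjusted p = 0.920). Icmt, the methyltransferase that follows it, was 1226, 920 and 726 in wild type and 1099, 824 and 691 in Zmpste24-/-. Each Icmt value was lower in Zmpste24-/- than in the same-numbered wild-type culture, but the groups overlapped, because the 3 cultures of each genotype spread more widely than the genotypes differed. The difference was -0.13, with an interval of -0.33 to 0.07 with the replicate block (0.796-fold to 1.05-fold, adjusted p = 0.684) and -0.76 to 0.50 without it. Differences lower in every pair were found for 16% of all tested probe sets. By these replicate-block intervals, a change of 1.5-fold or more lies outside the range for the brightest probe sets of Fnta, Fntb, Pggt1b, Rce1 and Icmt. Such a change lies within the interval of Pggt1b probe set 1429770_at (0.641-fold to 1.36-fold). Without the block it lies within those of Icmt (0.592-fold to 1.42-fold), the brightest Fnta probe set (0.648-fold to 1.61-fold), and Pggt1b probe sets 1438230_at (0.734-fold to 1.69-fold) and 1429770_at (0.616-fold to 1.42-fold).

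**Figure D3:**
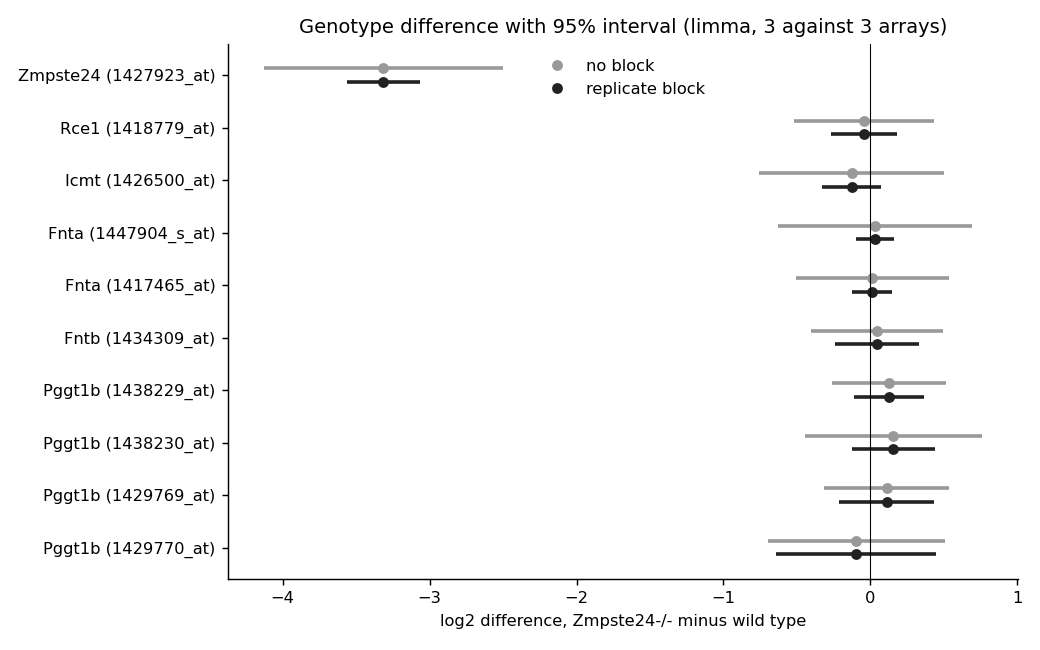
Log2 difference between genotypes (horizontal axis) for the 10 member probe sets, as points with 95% limma intervals, without a block (grey) and with the replicate block (black), 3 arrays a group. Zmpste24 lies at -3.31, and every interval of the other 9 probe sets includes 0.

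Culture number moved most members more than genotype did, Zmpste24 aside. The brightest probe set of Zmpste24, Icmt and Fnta was highest in culture 1 of both genotypes, which holds for 35.5% of all tested probe sets. Against the mean of cultures 2 and 3, the log2 gaps were 0.84 and 0.80 for Zmpste24, 0.58 and 0.53 for Icmt, and 0.75 and 0.65 for Fnta, in wild type and Zmpste24-/- respectively. Rce1 and Fntb were lowest in culture 1 of both genotypes, as were 30.7% of all tested probe sets. Their gaps were -0.31 and -0.41 for Rce1 and -0.25 and -0.26 for Fntb. No test of culture 1 against the others was run, and these gaps are a description. The part of the macrophage and proliferation markers, which moved with culture 1 too, was not tested. Gaps at least as large in the same direction in both genotypes occurred in 9.8% of tested probe sets for Zmpste24, 16.8% for Icmt, 13.4% for Fnta, 19.4% for Rce1 and 22.3% for Fntb. The brightest Pggt1b probe set had gaps of 0.04 and 0.23.

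**Figure D4:**
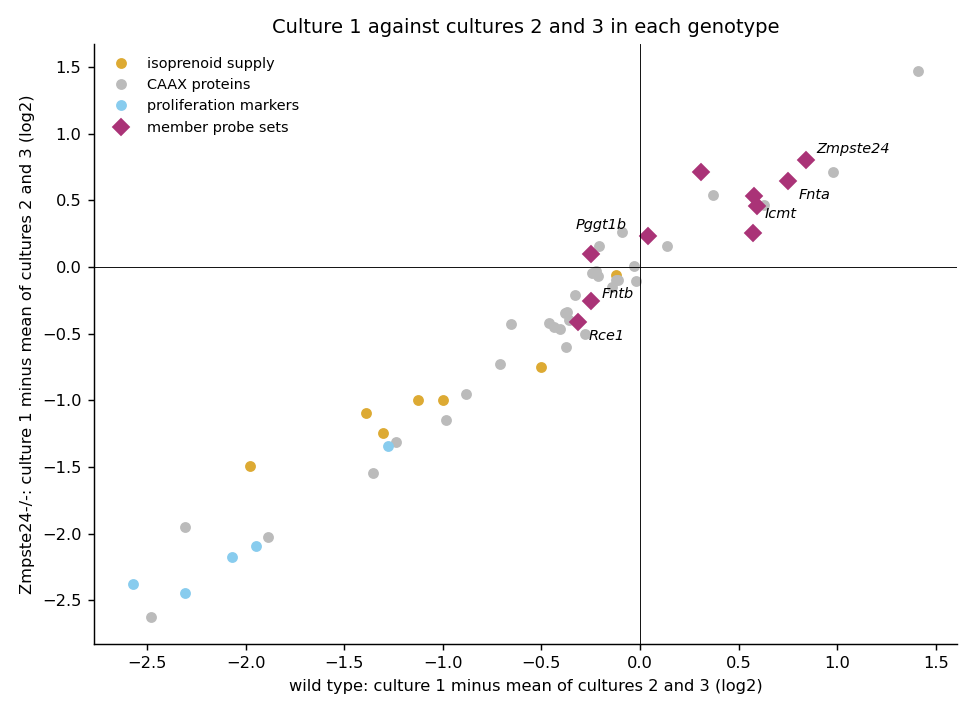
Log2 gap between culture 1 and the mean of cultures 2 and 3, in wild type (horizontal axis) and in Zmpste24-/- (vertical axis), for the 10 member probe sets (purple diamonds, brightest ones named) and for the listed genes of isoprenoid supply, CAAX proteins and proliferation (circles). Zmpste24, Fnta and Icmt lie in the upper right, Rce1 and Fntb in the lower left, and the 7 isoprenoid genes are all below 0 on both axes.

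The enzymes that make the lipids for these reactions showed no called genotype difference. Of 9 listed genes of the mevalonate pathway 7 were measured by a probe set of their own, and 6 were lower and 1 higher in Zmpste24-/-, with a median of -0.13 against -0.0048 for all tested. None passed with or without the replicate block. With it 2 of the 7 had an unadjusted p under 0.05, both with lower values, against 4.41% of all tested. These were Fdps, the farnesyl diphosphate synthase, at -0.13 (adjusted p = 0.511), and Mvd, the mevalonate diphosphate decarboxylase, at -0.25 (0.532). Fdps was 4402, 11577 and 10234 in wild type and 4131, 10190 and 9418 in Zmpste24-/-, so that culture 1 was far below the others in both groups. Mvk and Pmvk, the kinases of mevalonate and its phosphate, differed by -0.21 and -0.17. Ggps1, which makes geranylgeranyl diphosphate, was 407, 406 and 486 in wild type and 434, 477 and 429 in Zmpste24-/-. Its 4 probe sets differed by 0.05, 0.04, -0.23 and -0.31 and did not give one direction. By their brightest probe sets, all 7 isoprenoid genes were lower in culture 1 than in the mean of cultures 2 and 3 in both genotypes, with medians of -1.13 and -1.0 against 0.02 and 0.07 for all tested. Ggps1 had the smallest of these gaps, at -0.12 and -0.06, with culture 1 within the range of the others in each case, and 2 of its 4 probe sets were higher in culture 1 of both genotypes.

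A further list held genes of Rab prenylation and other prenyltransferase subunits. All 5 listed genes were higher in Zmpste24-/-, by a median of 0.07, beside 48.9% of all tested probe sets. None was called or had an unadjusted p under 0.05 in either fit. Chm and Chml, the Rab escort proteins, differed by 0.19 and 0.24, and Rabggta, the alpha subunit of the prenyltransferase for Rab proteins, by 0.06. Of 4 genes that handle or break down prenylated proteins 2 were higher and 2 lower. Pde6d, a carrier of prenylated proteins, differed by 0.09, Rap1gds1, a chaperone of small GTPases, by 0.02, and Pcyox1l, a relative of the prenylcysteine oxidase, by -0.10.

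The CAAX proteins on which the enzymes act were split evenly. Of 38 listed genes 34 had a probe set of their own, 17 higher and 17 lower, with a median of -0.0023, and none was called in either fit. With the replicate block 4 had an unadjusted p under 0.05, 2 in each direction, against 4.59% higher and 4.41% lower of all tested. These were Cenpe at 0.375 and Rnd3 at 0.20, both higher, and Cdc42 and Gng11, both lower. Lmna, which encodes prelamin A, was 4367, 8943 and 8352 in wild type and 3734, 8867 and 7771 in Zmpste24-/-, a difference of -0.11 (adjusted p = 0.594 with the replicate block). The groups overlapped, and culture 1 was low in both. The B-type lamins, which keep their farnesyl group, differed by -0.02 for Lmnb1 and -0.17 for Lmnb2. Cdc42, a geranylgeranylated GTPase of cell polarity, was 10144, 10490 and 10217 in wild type and 9537, 9462 and 9532 in Zmpste24-/-, the 1 of 34 whose groups did not overlap, beside 3.03% of all tested probe sets that were lower in this way. Its difference was -0.11 (adjusted p = 0.532 with the replicate block). Gng11, a G protein gamma subunit, and Inpp5e, a phosphatase of cilia, differed by -0.18 and -0.13.

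Genes of like pattern were ranked by the root mean square difference between log2 values, each gene centred on its own mean over the 6 arrays, among 13038 genes. No gene came close to Zmpste24: the nearest were Ifi27l2a at 0.83, Retn at 0.93, Tcl1b4 at 0.94, 2610316D01Rik at 0.95 and Gm9706 at 0.97 log2 units, the last 2 by probe sets that the array's designer marks as prone to cross-hybridise. Ifi27l2a was 378, 183 and 181 in wild type and 88.5, 61.7 and 32.3 in Zmpste24-/-, a smaller fall than that of Zmpste24. For the other members the nearest genes lay at 0.02 to 0.05. They were Xpnpep1 and Bri3 for Rce1, Fbxo6 and Nckipsd for Icmt, Acad8 and Slc25a20 for Fnta, Tnrc18 and Osbpl10 for Fntb, and Ndufb3 and Rad17 for Pggt1b.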

How the data were processed

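Per the submitters' processing notes, the authors made the deposited linear intensity values with GCOS, Affymetrix's array software; no settings are stated there. Every column averages 500.0 once 2% is trimmed from either end, so total RNA per cell cannot be seen. Of 45101 probe sets 64 controls were left out. Names came from the platform annotation and were checked through a RefSeq table of GRCm38.p6, which changed 0 symbols. Of the probe sets 34945 had 1 symbol, 932 had several and 9160 were not listed, and 34741 were matched by gene identifier.

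Values were tested as log2(intensity + 16), which understates changes of dim genes. The dimmest 40% by mean over all arrays (signal under 39.4) were left out. The remaining 27022 entered limma 3.58.1 (R 4.3.3) with eBayes' trend option; Benjamini-Hochberg adjusted p-values were called under 0.05, and intervals are 95%. The fit was tested on simulated data. Each gene in a list is represented by its brightest probe set. From each list the 3 genes of smallest p without a block were named, with Lmna, Lmnb1, Lmnb2, Fdps and Ggps1 always. Cenpe and Rnd3 were added for their p in the replicate-block fit. Members and lists were chosen with earlier results of these data known.

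The labels number the replicates of either genotype 1 to 3 and mention 3 wild-type and Zmpste24-/- pairs, without tying the numbers to those pairs. Deviations from group means correlated at 0.829, 0.588 and 0.574 between same-numbered cultures, over the limit of 0.1 for calling them paired. Correlations between number 2 of one genotype and number 3 of the other were 0.551 and 0.487, over that limit too. Culture 1 stood apart in both genotypes, so the check cannot show how cultures 2 and 3 pair. As alternatives, the pseudocount was 1 or 64, the filter absent or 60%, the scaling by quantiles or medians, the threshold 0.1 and the trend omitted. Array weights, blocks, cultures 2 and 3 alone, probe-set means per gene and omission of each array were tried too. The number of arrays limits the precision. Figures were drawn with matplotlib 3.10.9.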

Additional observations from a re-analysis of the deposited data

How the results depend on the processing

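The Zmpste24 difference stayed between -3.58 and -3.03 in all 22 alternatives and was called in 8 of them. These were array weights (-3.21), the replicate block (-3.31), number 1 as a block (-3.31), replicates 2 and 3 alone (-3.30), and the replicate block with quantile normalization (-3.33), median centring (-3.30), a pseudocount of 1 (-3.39) or of 64 (-3.09). The last 4 were added after seeing the data. Leaving out any 1 array did not make it called (adjusted p of 0.188 or more). The count of called probe sets, 0 in the fit as designed, was 1 with array weights, 5 with the replicate block, 11 with number 1 as a block and 20 with replicates 2 and 3 alone. It was 5, 14, 5 and 5 for the replicate block with quantile normalization, median centring, pseudocount 1 and pseudocount 64, and 0 to 4 with 1 array left out (4 without wild-type replicate 1). With replicates 2 and 3 alone, genotype and sex cannot be told apart.

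For the other 9 probe sets none of 195 values under the alternatives passed the threshold, and 18 changed sign, 15 of them with 1 array left out, where culture 1 has unequal weight in the genotypes. Over the arrays left out, Rce1 ranged from -0.15 to 0.094, Icmt from -0.31 to 0.065, Fnta from -0.18 to 0.28 and -0.14 to 0.21 for its 2 probe sets, and Fntb from -0.0535 to 0.14. Pggt1b kept its sign by its brightest probe set (0.05 to 0.17), while 1438230_at ranged from -0.0813 to 0.32 and 1429770_at from -0.20 to 0.0949. The latter was 0.0746 with array weights and 0.0097 with replicates 2 and 3 alone, where 1429769_at was -0.0027. Averaging the probe sets of a gene was an alternative for Fnta and Pggt1b only, since Rce1, Icmt and Fntb have 1 each. The dimmest member probe set, 1429770_at, had the largest standard error of the 10 in the replicate-block fit (0.236), though not without the block, and a filter of 60% removes it.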

Other observations

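Several genes of the lists around the CAAX enzymes, picked after their values were seen, were far apart between culture 1 and the others in both genotypes. Most genes of these lists were lower in culture 1 of both genotypes, among them 26 of 34 CAAX proteins, beside 37.7% of all tested probe sets. Pcyox1, the lysosomal oxidase that breaks down prenylcysteine, was 7640 and 7881 in the wild-type and Zmpste24-/- cultures numbered 1 and 3979 to 4155 in the other 4. Its relative Pcyox1l was 90.7 and 113 in number 1 and 198 to 300 in the others. Pde6d, which carries farnesylated cargo, was 1.6-fold and 1.77-fold higher in culture 1 than in the mean of cultures 2 and 3. Chml, a Rab escort protein, was 45.3 and 58.7 in number 1 and 138 to 223 in the others. Lmnb1 was 416 and 385 in number 1 and 2307 to 2491 in the others.

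A dim Lmna probe set, 1452212_at, singled out after its values were seen, was 56.8, 43.3 and 62.5 in wild type and 16.8, 19.6 and 18.9 in Zmpste24-/-. It was left out by the filter on low values, and in limma with no filter its log2 difference was -1.02 (unadjusted p = 0.00253, adjusted p = 1.0). The groups did not overlap. The 4 tested Lmna probe sets differed by -0.11, -0.15, -0.03 and 0.09. What this probe set measures was not tested.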
